A study of Sus scrofa with 6 samples.

Results

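The comparison set the deciduous incisor germ against the deciduous canine germ of miniature pig embryos on embryonic day 50. It rests on 1 of the 6 arrays of the study, chosen by its column headings and not by any measured value, and it covers all 742 experimental probes of that array. The study dissected deciduous germs of 4 tooth types, namely incisors, canines, premolars and molars, under a microscope on embryonic days 40, 50 and 60, with 1 biological replicate of each of the 12 conditions. Both germs compared here are tissue with no stated treatment, genotype or sex, and it is not stated if germs from more than 1 embryo went into an RNA. The canine RNA carried Cy3 and the incisor RNA Cy5 on the same array, each probe was printed at 4 spots, and no second array exchanged the dyes. The title of this array gives the incisor as day 60, whereas its other labels and its column heading give day 50, which was used.

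MicroRNAs are short RNAs of animal cells that guide Argonaute proteins to messenger RNAs. Bases 2 to 8 of the microRNA, its seed, pair with the target and largely decide which messages are repressed, so that microRNAs with the same seed form a family with overlapping targets. A tooth germ is built of dental epithelium and neural-crest-derived mesenchyme that signal to each other. The miR-200 family and miR-205 are known for their expression in epithelia, miR-140 for cartilage and other skeletal mesenchyme, and miR-133 and miR-206 for skeletal muscle. The miR-15/16 family is known for repressing cyclins and other genes of the cell cycle, and the miR-17 cluster for promoting proliferation.

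The sequences that carry the differences are those of the probes' targets in the deposited spot file, written 5′ to 3′ with the seed in capitals. The first set, all higher in the incisor, shows the seed shared by miR-16, miR-195 and miR-15a, with the longer forms of miR-195 and miR-15a, whose ratios were above those of the mature pig probes.
miR-16: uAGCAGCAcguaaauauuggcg
miR-195: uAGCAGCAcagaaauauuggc
PN-195-5p-30300: uAGCAGCAcagaaauauuggcau
miR-15a: uAGCAGCAcauaaugguuugu
PN-15a-5p-24695: uAGCAGCAcauaaugguuuguga
The next set shows the pair of miR-130 members, miR-140* and the pair of epithelial microRNAs with a common seed, all higher in the incisor as well. Probes whose names begin with PN or PC keep their names as printed on the array, because the sources used here do not explain these prefixes.
miR-130a: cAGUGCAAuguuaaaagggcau
miR-130b: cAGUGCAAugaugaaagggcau
miR-140*: uACCACAGgguagaaccacggac
PN-200a-3p-145: uAACACUGucugguaacgauguu
PN-141-3p-21462: uAACACUGucugguaaagaugu
The last set, all with ratios below 0, shows the shared seed of the miR-181 family, the 2 short miR-181a forms with the lowest ratios in that family, the miR-19 pair and miR-205.
miR-181a: aACAUUCAacgcugucggugaguu
miR-181a-5p-39722: aACAUUCAacgcugucg
miR-181a-5p-39048: aACAUUCAacgcuguc
miR-181b: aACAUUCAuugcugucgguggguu
miR-181c: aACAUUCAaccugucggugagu
miR-181d: aACAUUCAuuguugucgguggguu
miR-19a: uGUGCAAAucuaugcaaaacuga
miR-19b: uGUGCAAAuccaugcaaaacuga
miR-205: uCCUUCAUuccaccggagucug
Several of these targets are nearly the same. Base by base from the 5′ end, miR-16 and miR-195 share 19 of 21 bases, miR-130a and miR-130b 20 of 22, miR-19a and miR-19b 22 of 23, miR-181b and miR-181d 23 of 24, and the targets of PN-200a-3p-145 and PN-141-3p-21462 21 of 22. Probes to such pairs may bind each other's microRNA, so their ratios are not independent of each other.

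The array held 188 probes to mature pig microRNAs, 193 with another miR name, 157 with the prefix PN and 204 with the prefix PC. A probe counted as detected where its mean over 4 spots exceeded the background by over 3 SD of the readings at blank spots. The canine RNA gave 517 detected probes and the incisor RNA 266, and each of the 266 was detected in the canine RNA too, which leaves 251 detected in the canine alone. Blank spots read a median of 132 intensity units in the canine channel and 70.8 in the incisor channel. Before normalisation the log2 ratio of incisor over canine had a median of -0.88 over the probes detected in both RNAs. Total small RNA input and dye brightness cannot be told apart from this offset, so every ratio given here is relative to the array's own trend. After loess normalisation the 517 detected probes had a median log2 ratio of -0.02, with 228 above 0 and 289 below, and 77.8% of them lay within 0.5 of 0 in either direction. Across probes, the SD over the 4 spots had a median of 0.10. These spots are technical repeats of 1 hybridisation, so the SD given with each ratio (n = 4 spots) measures printing and scanning only. With 1 RNA per germ no test of a difference between the germs was possible, and none is given.

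A probe was counted as higher or lower when all 4 of its spots differed by at least 2-fold in 1 direction and it was detected in at least 1 RNA. By this rule 35 of the 517 detected probes (6.77%) were higher in the incisor and 21 (4.06%) were lower. Among the 137 detected probes to mature pig microRNAs, 12 (8.76%) were higher and 8 (5.84%) were lower. The split depends on the scale: 62.5% of the called probes were higher under loess, 14.8% after centring on the median of all experimental spots, 9.65% without normalisation, and 96.8% with the 4 control probes named SSC-5S as the reference. Those 4 control probes themselves read -1.16, -0.78, -0.68 and -0.85 after loess. Only some of the directions that turn with the scale are marked where they occur, so an unmarked direction is not thereby settled. With the SSC-5S reference, every negative ratio above -0.87, the mean of the 4 control probes, turns positive.

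**Figure D1:**
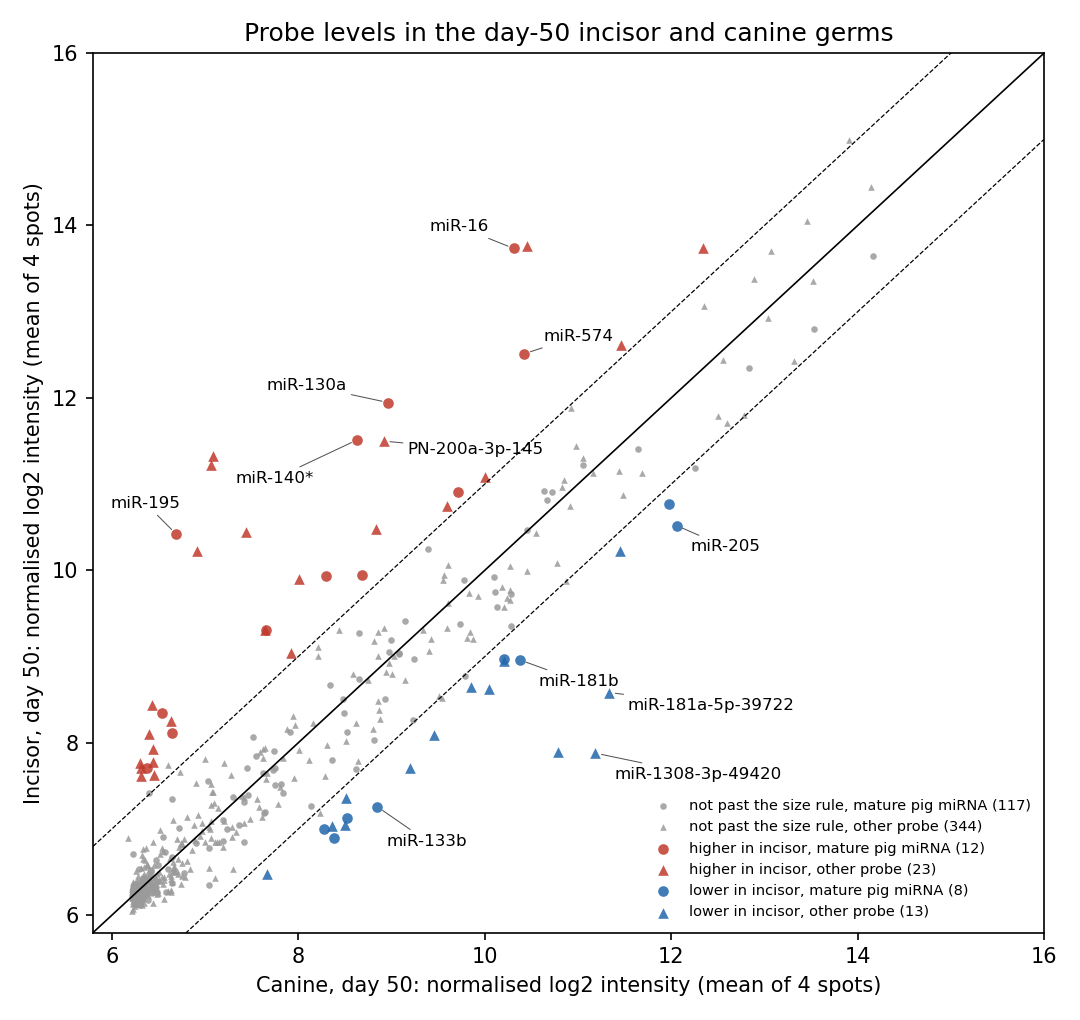
Normalised log2 intensity of the 517 detected probes in the day-50 canine (x axis) and incisor (y axis), each point the mean of 4 spots. The solid line marks equal levels and the dashed lines a 2-fold difference. Most probes lie between the dashed lines, the 35 higher probes (red) reach from dim to bright levels, and the 21 lower probes (blue) lie below.

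Of the microRNAs higher in the incisor, the miR-15/16 family stood out by number and size. The family's miR-195 read 10.41, 10.45, 10.24 and 10.59 in the 4 incisor spots and 6.67, 6.76, 6.60 and 6.72 in the 4 canine spots, on the normalised log2 intensity scale. Its near relative miR-16, the brightest of the higher mature microRNAs in the incisor, read 13.87, 13.57, 13.77 and 13.72 against 10.36, 10.17, 10.32 and 10.39. Spots of the incisor and of the canine did not come near each other for either microRNA. The log2 ratios were 3.73 ± 0.10 for miR-195 and 3.42 ± 0.07 for miR-16 (SD, n = 4 spots). The third member past the rule, miR-15a, was dimmer and had a log2 ratio of 1.33 ± 0.12. The family was not uniform: miR-497, which RefSeq's pig gene table (assembly Sscrofa11.1) places next to miR-195 with 0 genes between them, had 1.02 ± 0.03 and missed the rule in 1 spot, while miR-15b, detected in both germs, read -0.04 ± 0.19. The probe to miR-424 was not detected in the incisor and its ratio is not read here. In the RefSeq table a first miR-16 gene lies next to miR-15a and a further one next to miR-15b, and the array's miR-16 probe does not tell their products apart. Over the list of miR-15/16 members with pig or miR names, 10 of 11 probes were detected. Of these 5 were higher and 0 lower, beside 6.77% and 4.06% over all detected probes. The 5 were forms of miR-16, miR-195 and miR-15a and are not separate measurements. The median log2 ratio was 1.22, beside -0.02 over all detected probes. That median stayed above 0 under all 16 alternative settings, from 0.55 to 2.40.

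In the family of miR-130 and miR-301, 5 detected probes carried the seed AGUGCAA, and 2 of them were past the rule. For miR-130a the incisor spots read 11.96, 11.99, 11.90 and 11.93 and the canine spots 9.07, 8.80, 8.997 and 8.99, a log2 ratio of 2.98 ± 0.14. The other, miR-130b, had 1.63 ± 0.05. The other 3 probes with the seed, among them miR-301b-3p-21966 at 0.44 and PN-301a-3p-20657 at 0.37, read from 0.01 to 0.44, so that all 5 were above 0 with a median of 0.44. The list by name, which also takes in opposite arms with other seeds, had 8 detected probes. Of these 2 were higher, beside 6.77% over all detected probes, and the median of 0.01 turned sign in 4 of 16 settings. Of those 8 only 3 were detected in the incisor. The probes to miR-130a and miR-130b share 20 of 22 bases, as shown above.

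Markers of skeletal mesenchyme were mixed. The cartilage microRNA miR-140* read 11.50, 11.54, 11.43 and 11.59 in the incisor and 8.64, 8.59, 8.58 and 8.72 in the canine, and its log2 ratio of 2.88 ± 0.04 had the tightest spots of the 6 highest mature microRNAs. A further probe to the same arm, PN-140-3p-18, had 3.31 ± 0.18. The other cartilage-related member past the rule, miR-455, had 1.19 ± 0.10. Probes to the opposite arms were dim and close to 0, PN-140-5p-5323 at 0.07 and miR-455-5p-4494 at 0.09. At the other end of the list of mesenchymal and skeletal microRNAs stood miR-218-5p-18206 at -1.18 ± 0.10, undetected in the incisor, where the canine was at least 2.03-fold higher on this scale. That direction is not settled, because the probe read lower in the right column on all 6 arrays and turned to 1.81 when the mean right over left ratio of the other arrays was removed. Of 29 detected probes in this list 4 were higher and 1 lower, beside 6.77% and 4.06% over all detected probes, and the median of 0.04 turned with the scale.

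The remaining 5 mature pig microRNAs higher in the incisor belong to none of the 19 lists. The brightest, miR-574, read 12.64, 12.52, 12.44 and 12.45 in the incisor and 10.57, 10.31, 10.30 and 10.52 in the canine, a log2 ratio of 2.09 ± 0.12. The hypoxia-responsive miR-210 read 8.31, 8.19, 8.54 and 8.35 against 6.44, 6.61, 6.56 and 6.55, a log2 ratio of 1.81 ± 0.17, with incisor spots farther apart than those of miR-574. Smaller differences were those of miR-339 at 1.65 ± 0.05, miR-744 at 1.47 ± 0.09 and miR-331-3p at 1.26 ± 0.08. Among the probes with other names, the 3 highest were PN-195-5p-30300 at 4.25 ± 0.19, PN-377-3p-18696 and PN-140-3p-18. The ratio of PN-377-3p-18696, 4.16 ± 1.81, rests in part on 1 spot: its 4 log2 ratios were 3.02, 3.51, 3.26 and 6.86, and the incisor intensity of that last spot was 13473 units against 654 to 907 at the other 3.

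**Figure D2:**
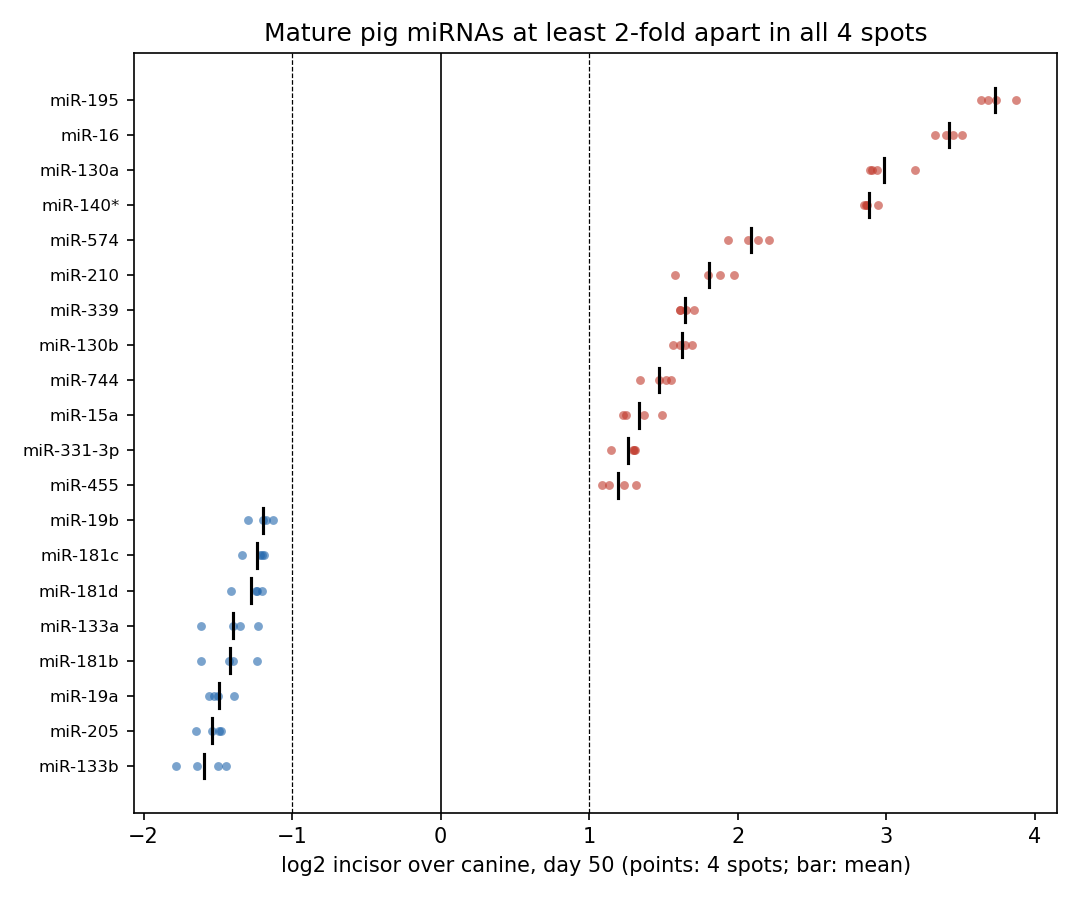
Log2 ratio of incisor over canine at each of the 4 spots (points) and their mean (bar) for the 20 mature pig microRNAs past the size rule, with dashed lines at a 2-fold difference. The spots of each microRNA lie close together beside the distance from 0, from miR-195 at 3.73 to miR-133b at -1.59.

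Among the microRNAs lower in the incisor, the miR-181 family was the most numerous. For miR-181b the incisor spots read 9.01, 9.16, 8.69 and 8.98 and the canine spots 10.44, 10.40, 10.31 and 10.38, a log2 ratio of -1.42 ± 0.15 or 2.67-fold higher in the canine. Dimmer but alike, miR-181d read 7.07, 6.90, 6.97 and 7.07 against 8.30, 8.31, 8.21 and 8.27, a log2 ratio of -1.27 ± 0.10. The neighbouring gene's product miR-181c had -1.24 ± 0.07, and full-length miR-181a, the brightest of the family, had -1.07 ± 0.09 and missed the rule in 1 spot. All 12 detected probes with the seed ACAUUCA had ratios below 0 and 8 of them were past the rule, beside 289 of 517 and 4.06% over all detected probes. Of the 12, 11 were detected in the incisor too. The other, miR-181b-5p-34723 at -0.09 ± 0.11, is not read as a difference. The opposite arm of miR-181a, miR-181a-3p-3133, was detected in both germs and read 0.10 ± 0.12. Over the list of miR-181 members with pig or miR names, the median was -1.23 (7 of 12 detected probes lower, 0 higher), and it stayed below 0 under all 16 alternative settings, from -2.22 to -0.37.

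The miR-17 cluster and its paralogs held the next group. The canine reading of miR-19a was 8.40, 8.28, 8.29 and 8.57, and the incisor spots read 7.004, 6.79, 6.73 and 7.04, which is not above background, so that the canine was at least 2.82-fold higher. The brighter miR-19b was detected in both germs and had a log2 ratio of -1.20 ± 0.07. All 7 probes with the seed AAAGUGC, that of miR-17, miR-20 and miR-106, were below 0 (median -0.93), with 2 past the rule, miR-20b-5p-17250 at -1.49 ± 0.02 and miR-106a-5p-29928 at -1.25 ± 0.07. The targets of these 2 share 21 of 23 bases, so they are not separate measurements. Both also read lower in the right column on all 6 arrays, which leaves them open to column bias. The probes to miR-92a, a microRNA known to be cut from the same primary transcript as miR-17 and miR-19, differed by length: full-length miR-92a read -0.36, while the form of 17 bases, miR-92a-3p-56231, read -1.15 ± 0.06 and was past the rule. Full-length miR-92a, PN-93-5p-107 (-0.64) and PN-106b-5p-439 (-0.20), the last 2 with the seed AAAGUGC, turn above 0 with the 5S control probes as reference. The whole list had 5 of 18 detected probes lower and 0 higher, beside 4.06% and 6.77% over all detected probes, and a median of -0.32, which turned to 0.54 with the 5S control probes as reference. The let-7 family, known to rise as tissues mature, had all 6 detected probes of its list below 0, from -0.77 (let-7i) to -0.42 (let-7c). None was past the rule, and the median of -0.51 turned to 0.36 on that same reference. With the let-7 seed GAGGUAG 12 probes were detected, 11 of them in the incisor, and read from -0.77 to -0.09 with a median of -0.43. The let-7i target of 19 bases read -0.77, whereas miR-7i-5p-8, brighter and of 22 bases with the same first 14, read -0.22 ± 0.01.

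Epithelial microRNAs did not move as 1 group. The epithelial miR-205 read 10.52, 10.58, 10.41 and 10.57 in the incisor and 12.01, 12.12, 12.06 and 12.05 in the canine, a log2 ratio of -1.54 ± 0.07, or 2.91-fold higher in the canine. Longer forms with brighter probes differed less and were not past the rule, miR-205-5p-304 at -0.98 ± 0.08 and PN-205-5p-5764 at -0.89 ± 0.11. In contrast PN-200a-3p-145 read 11.49, 11.41, 11.53 and 11.58 against 8.91, 8.96, 8.84 and 8.96, a log2 ratio of 2.58 ± 0.10. The targets of PN-200a-3p-145 and PN-141-3p-21462 (1.48 ± 0.23) carry the seed AACACUG. The 6 detected probes of the same family with the other seed, AAUACUG, had a median of -0.29. They read from -0.46 (PN-200b-3p-161) to 0.02 (PN-429-3p-6578, the only 1 above 0), with PN-200b-3p-110 at -0.32 and PN-200c-3p-193 at -0.38. Their median turns above 0 with the 5S reference. The skin microRNA miR-203 read -0.03, and miR-31-5p-42472 of the same list -0.84 ± 0.13. With PN and PC names included, 17 of 18 probes of the epithelial list were detected. Of these 2 were higher and 1 lower, beside 6.77% and 4.06% over all detected probes, and the median was -0.19. Over the 6 detected probes with pig or miR names it was -0.55, which turned to 0.31 with the 5S reference. In whole germs, fewer cells of a type and less RNA per cell cannot be told apart.

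Muscle microRNAs were lower in the incisor. The incisor spots of miR-133b read 7.35, 7.35, 7.09 and 7.25 and the canine spots 8.79, 8.84, 8.88 and 8.88, a log2 ratio of -1.59 ± 0.15. For miR-133a the readings were 7.09, 7.09, 7.35 and 6.98 and 8.49, 8.44, 8.58 and 8.60, a ratio of -1.40 ± 0.16. No incisor spot of either reached its lowest canine spot. The neighbouring gene of miR-133b makes miR-206, which was detected in the canine and not in the incisor and had a log2 ratio of -0.69. That ratio turns above 0 with the 5S control probes as reference. A further probe to miR-206, miR-206-3p-33411, was detected in neither germ. Of the 11 probes in the muscle list 5 were detected, 3 of them lower, beside 4.06% over all detected probes, with a median of -1.32 that stayed below 0 under all 16 settings (-2.24 to -0.09). Those 3 were probes to miR-133a and miR-133b, whose seeds UGGUCCC and UUGGUCC overlap. They may bind each other's microRNA and are not separate measurements. Before normalisation, their background-subtracted intensities summed to 1941 units in the canine and 128 in the incisor. These sums carry the brighter canine channel: the miR-30 list, with a median ratio of -0.04, summed to 3761 and 1330 units. The defining muscle microRNAs miR-1, miR-499 and miR-208b were not detected in either germ with the mature pig probes, though PN-1-3p-13186, named for miR-1, was detected in the canine alone and read -0.49. What part muscle tissue beside the canine germ had in the other differences was not tested.

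No probe of the blood cell, endothelial or neural lists was past the rule, with 5, 5 and 12 detected and medians of -0.08, 0.16 and 0.07. Over all detected probes 6.77% were higher and 4.06% lower, so lists this small could hold none at that share. The highest members of these lists were miR-451-5p-792, the red-cell microRNA, at 0.96 ± 0.08, miR-221-3p-121 at 0.41 and miR-138-5p-826 at 0.87. Their lowest members were miR-155-5p-11894 at -0.11, miR-126-3p-3530 at -0.38 ± 0.03 and miR-212-5p-17375 at -0.02. Of these only miR-126-3p-3530 was detected in the incisor. The list for the imprinted DLK1-DIO3 cluster had 13 detected members with pig or miR names, 0 past the rule and a median of -0.15. With PN and PC names 2 of 53 in this list were higher, beside 6.77% over all detected probes, led by PN-381-3p-1991 at 2.01 ± 0.09. The list leaves out the names miR-377 and miR-300, which also belong to this cluster. PN-377-3p-18696 (4.16) and PN-300-3p-13997 (1.70), both called higher, are therefore not in its counts. The target of PN-300-3p-13997 has the same first 14 bases as that of PN-381-3p-1991. The microRNAs of the Hox clusters, 3 detected in the canine and 0 in the incisor, had a median of 0.01 that cannot be read as equality, because the offset added to both channels draws the ratio of dim probes towards 0. The same holds for the miR-29 family, known for repressing collagens, with 3 members detected in the canine alone and a median of 0.09. Families detected in both germs with no member past the rule were those of miR-99, miR-100 and miR-125 (median -0.22), miR-30 (-0.04), miR-26 (-0.17, 1 probe), miR-23, miR-24 and miR-27 (0.00) and miR-103 with miR-107 (0.25). Each median in this paragraph took the other sign under at least 1 other setting, so none of them has a settled direction.

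**Figure D3:**
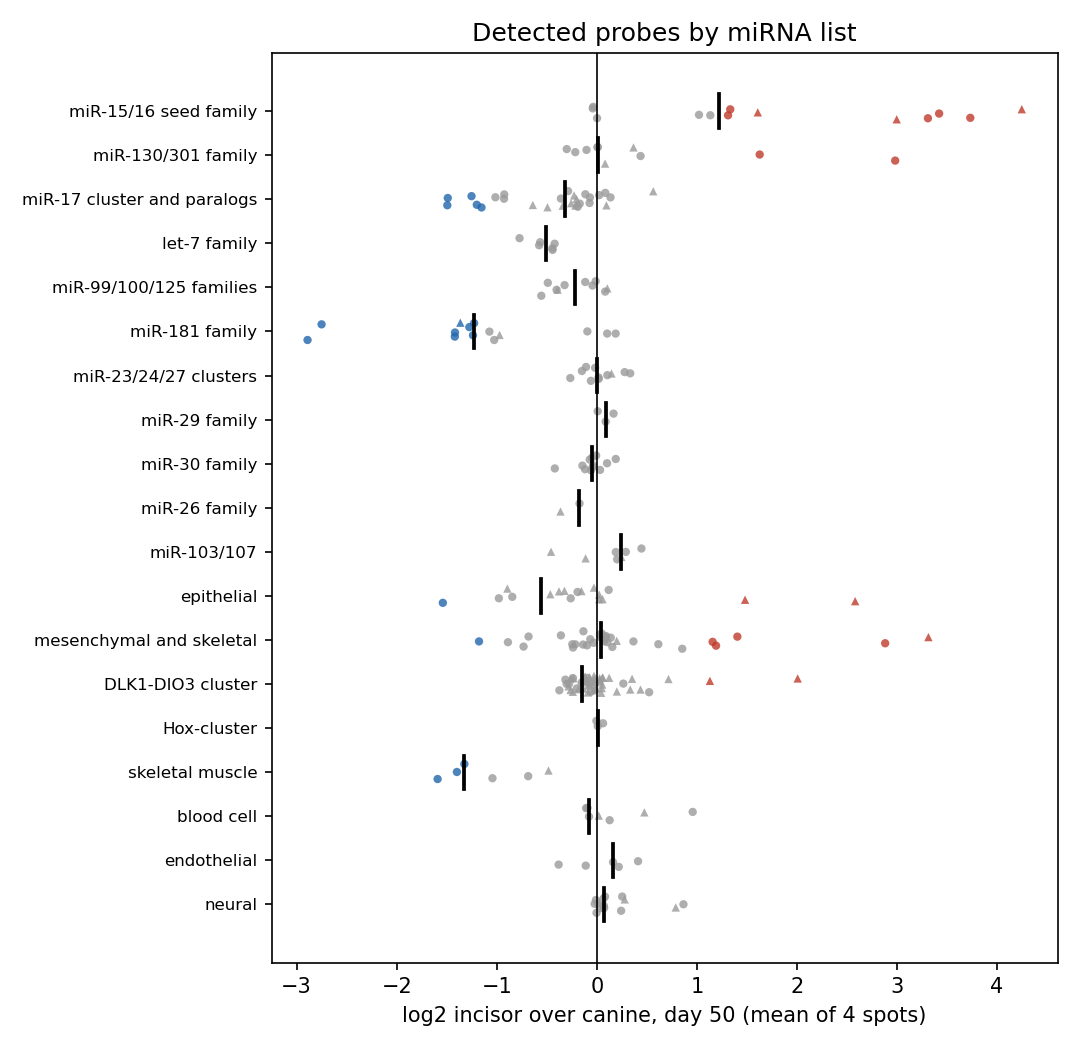
Log2 ratio of incisor over canine for the detected probes of each list (circles: pig or miR names, triangles: PN or PC names, red and blue: past the size rule). Bars are medians over the circles. The miR-15/16 family lies to the right with a median of 1.22, and the miR-181 (-1.23) and muscle (-1.32) lists lie to the left.

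Probes whose targets share their 5′ ends, most of them forms of 1 microRNA and some near relatives such as miR-200a and miR-141, showed how far ratios of like targets can differ. Among probes detected in both germs, 105 probes fell into 41 groups with the same first 14 bases. The ratios within such a group spanned a median of 0.24, with 32 groups under 0.5 and 4 groups over 1. The miR-16 probes of 22 and 23 bases had 3.42 and 3.31. The widest group was miR-195, where the forms of 23, 21 and 22 bases had 4.25, 3.73 and 1.31. The last of these was the dimmest in the incisor, at 7.62 against 10.42 and 11.33 for the others. For miR-181a the short forms of 17 and 16 bases had -2.75 ± 0.04 and -2.89 ± 0.16, or 6.73-fold and 7.42-fold higher in the canine, while the full form of 24 bases had -1.07. Of the 46 detected probes with targets of 16 or 17 bases, 1 was higher and 5 were lower (10.9%, beside 4.06% over all detected probes), and their median was -0.10, beside -0.02. The part of target length in these low ratios was not tested. The lowest ratio of the array, -3.31 ± 0.07 for miR-1308-3p-49420, also belonged to a target of 16 bases. Across the 517 detected probes, which share 1 hybridisation, the ratio had a Pearson r of 0.05 with target length, 0.03 with GC content and 0.06 with mean intensity, as a description.

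**Figure D4:**
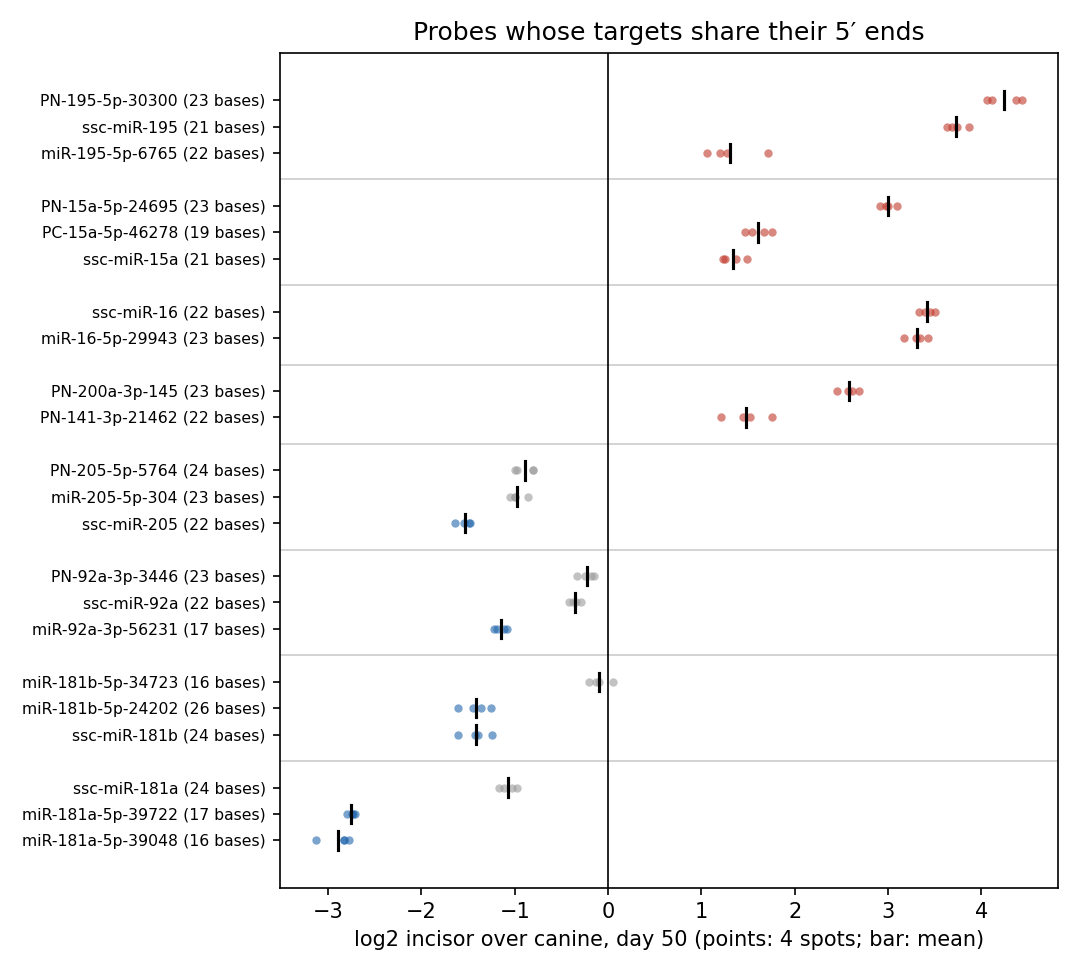
Log2 ratio of incisor over canine at the 4 spots (points) and their mean (bar) for probes grouped by targets with the same or nearly the same 5′ end, with target length in bases. Forms of miR-16 lie together, whereas the short miR-181a forms lie at -2.75 and -2.89 and the full form at -1.07. The 16-base form miR-181b-5p-34723 was not detected in the incisor, so its place near 0 has no meaning.

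The 35 higher probes carried 24 seeds and the 21 lower probes 11 seeds, with 0 seeds in common. Most of these seeds held only 1 called probe and could not appear in both directions. The count of 0 is therefore not read as a result about the seeds. Of the 35 higher probes 16 fell into 5 seeds with at least 2 called probes, and of the 21 lower probes 14 fell into 4 such seeds. Many of these are forms of 1 microRNA or targets that differ by 1 or 2 bases, so they are not separate measurements.

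The incisor and canine of days 40 and 60 lay on other arrays, beside premolar or molar RNAs. Their levels were set to a common scale (Aquantile) and are given as values, since arrays and, on day 60, dyes differ between the germs compared. On this scale, on days 40, 50 and 60 in that order, miR-16 read 13.42, 14.09 and 13.77 in the incisor and 14.29, 10.67 and 14.10 in the canine. For miR-130a the levels were 12.40, 12.31 and 11.92 in the incisor and 12.999, 9.33 and 12.49 in the canine, and for PN-200a-3p-145 11.39, 11.91 and 11.43 in the incisor and 12.20, 9.33 and 12.22 in the canine. In each case the day-50 canine stood low and the day-50 incisor lay among the other RNAs. Of the 35 higher probes, the day-50 canine was the lowest of the 6 incisor and canine RNAs for 31, and the day-50 incisor the highest for 7. These probes were chosen for a low canine on day 50. Among all 130 probes detected in both germs with a ratio above 0, the day-50 canine was the lowest for 64 (49.2%). For miR-195 the levels were 11.94, 10.63 and 10.89 in the incisor and 11.90, 6.90 and 11.99 in the canine. An exception was miR-574, 13.02, 12.96 and 12.62 in the incisor and 13.63, 10.87 and 10.48 in the canine, where the day-60 canine was low too. The incisor exceeded the canine for 8 of the 35 on day 40, for 3 on day 60 and for 0 on both days. Of all 517 detected probes, with ratios of either sign, 232 kept their day-50 sign on day 40, 209 on day 60 and 104 on both.

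Of the 21 lower probes, the day-50 canine was the highest of the 6 RNAs for 17, beside 78 of 136 (57.4%) among all probes detected in both germs with a ratio below 0. On both other days 10 of the 21 kept their sign, beside 104 of all 517 detected probes. Those 10 were the 8 called miR-181 probes and 2 PC probes. For miR-181a-5p-39722 the levels were 7.45, 8.96 and 9.90 in the incisor and 8.60, 11.71 and 11.12 in the canine, so the canine was above the incisor on each day. For miR-181c they were 8.90, 9.29 and 9.08 in the incisor and 9.36, 10.53 and 10.34 in the canine, again with the canine above on each day. In contrast miR-205 read 11.39, 10.92 and 12.10 in the incisor and 10.90, 12.46 and 11.18 in the canine, with the canine above on day 50 alone. The levels of miR-133b were 7.24, 7.54 and 7.22 in the incisor and 6.85, 9.13 and 7.45 in the canine, and those of miR-19b 11.36, 11.21 and 9.84 in the incisor and 10.81, 12.41 and 8.77 in the canine, each highest in the day-50 canine.

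**Figure D5:**
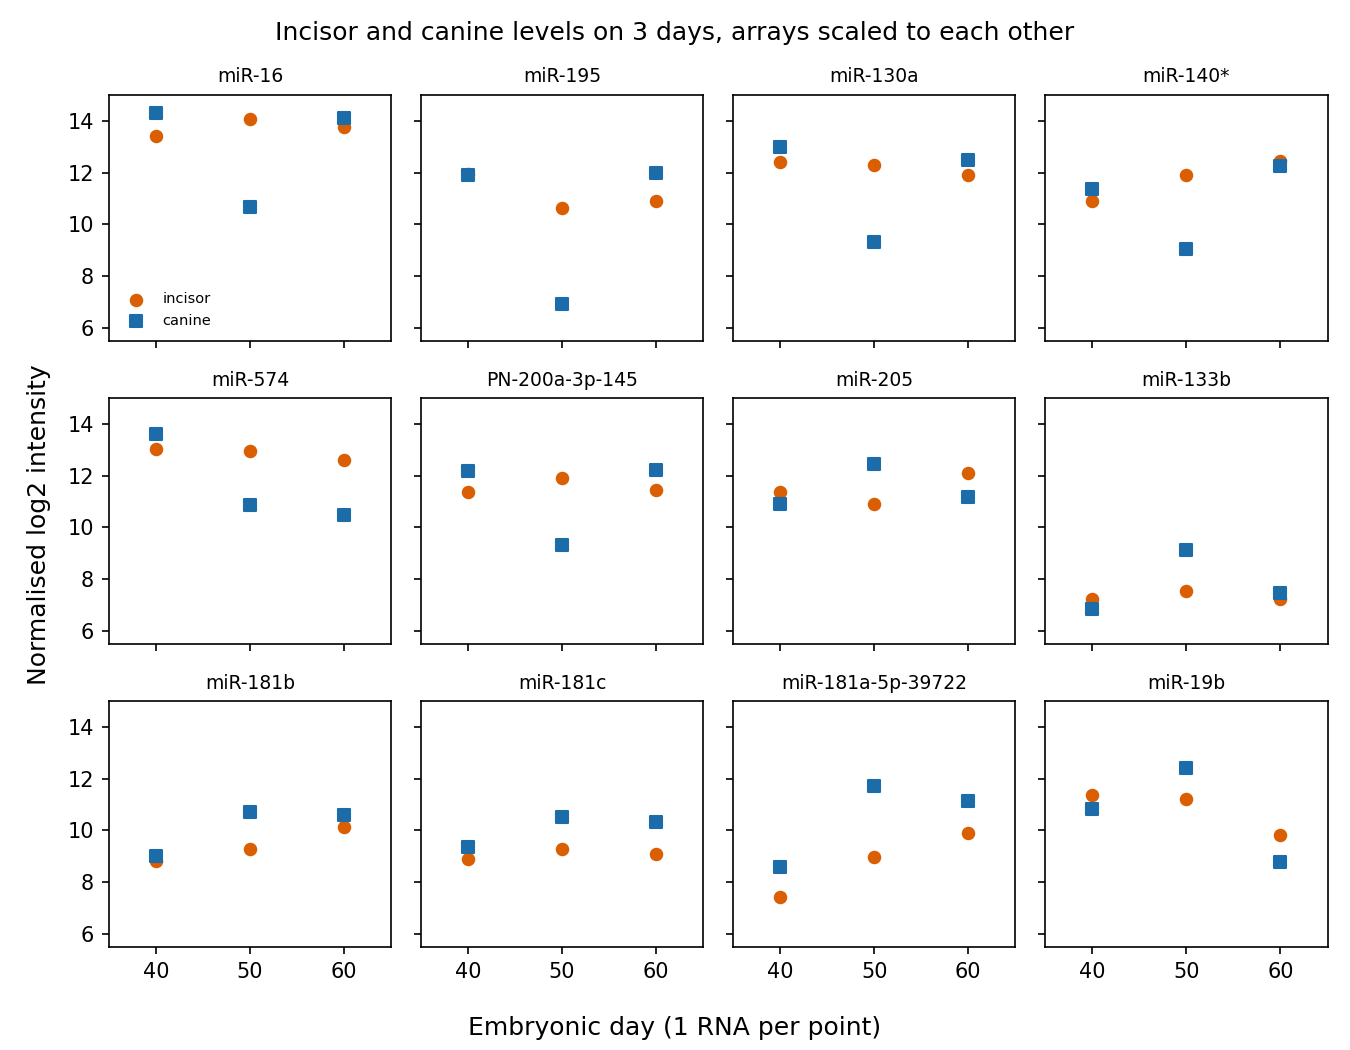
Normalised log2 intensity of 12 microRNAs in the incisor (circles) and canine (squares) RNAs of 3 embryonic days, 1 RNA per point, with arrays scaled to each other. The day-50 canine lies apart for miR-16, miR-195, miR-130a, miR-140* and PN-200a-3p-145, and the canine lies above the incisor on each day for the 3 miR-181 probes shown.

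Without an exchange of dyes, a probe that binds better in 1 colour would read as a difference. Of the 35 higher probes 4 also read higher in the right column on all 5 other arrays (miR-339, miR-339-5p-24465, miR-455 and PN-193b-3p-948), and 4 of the 21 lower probes read lower there (miR-218-5p-18206, miR-106a-5p-29928, miR-20b-5p-17250 and PC-3p-40159), beside 40 of all 517. For miR-218-5p-18206 the right column was lower by more on the other arrays, from -3.77 to -1.92, than on this one. The ratio of PN-377-3p-18696 on the other arrays ran from -0.01 to 3.84. The ratio of miR-16 there ran from -0.19 to 0.87 and that of miR-181b from -0.37 to 1.87, so neither read one way in the right column. A dye effect on this array itself was not tested.

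At the edge of the size rule, the probes just inside on the higher side were PC-5p-46964 at 1.08 and miR-145-5p-234 at 1.16, and those just outside miR-497 at 1.02 and PN-1937b-5p-17039 at 1.09. On the lower side miR-218-5p-18206 at -1.18 and miR-92a-3p-56231 at -1.15 lay just inside, and miR-181a at -1.07 and miR-181d-5p-4330 at -1.03 just outside. In the authors' deposited table, all 56 called probes had the same sign as here, and their log2 values correlated with these ratios at r = 0.92 across the 517 detected probes.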

How the data were processed

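MicroRNAs of 2 RNAs per array were measured on custom arrays, 1 RNA per condition. The deposited spot files give the mean intensity of each spot in 2 density columns, per the file headers, on a linear scale, background included, and with commas inside large numbers, which were taken out. The deposited table of the authors' processed log2 values ran as incisor over canine on this array. Its median was 0.01, its scale and centring are not known, and it served as an alternative. The sources used here name no scanner or image software.

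The RNA of each column was taken from its heading and the dye from the labels. In each channel the 716 blank spots of 3968 gave the background surface (robust loess, span 0.3). Intensities were corrected by normexp (offset 50) and normalised by loess within the array, with control spots at weight 0 (limma 3.58.1, R 4.3.3). The log2 ratios of the 4 spots were averaged. Net intensities are those above the surface. Spot SDs of blanks were 5.63 units in the canine channel and 6.09 in the incisor channel. The number of arrays limits the precision. Levels on other days used Aquantile between arrays. For a probe not detected in the incisor the fold is a lower limit, set by its own incisor level or the lowest level detected there, whichever is higher, and open to dye bias. The script was tested on simulated ratios.

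All mature pig microRNAs past the size rule are named, the 6 highest and 6 lowest with all spots, and so are the 3 highest and lowest other probes, the 2 probes nearest to the rule on each side, and the extremes of a list could be named. Seed groups, length forms, arm-specific probes and those in the closing section were named after their values were seen. So were the probes to miR-141, miR-200b, miR-200c, miR-203, miR-206, miR-301, miR-1, miR-31 and miR-300. The 19 lists were matched by miRNA name, counted over pig and miR names unless stated. Members and lists were chosen with earlier results of these data known. The names miR-18 and miR-20 were added to 1 list after the files were seen, to match the array's names. Alternatives covered background, normalisation, detection, the fold, single spots, the authors' values and column bias.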

Additional observations from a re-analysis of the deposited data

Results flagged for a closer look

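Of the 20 mature pig microRNAs past the size rule, 8 had an incisor minus canine difference on day 50 opposite in sign to that on both other days. None of these differences between days was tested, since each day has 1 RNA per tooth type, and the germs of days 40 and 60 lay on separate arrays. The incisor was in the right column on day 50 alone and the canine on day 60 alone, so day and column cannot be told apart. On the log2 scale the difference was 3.42 on day 50, -0.87 on day 40 and -0.33 on day 60 for miR-16. It was 2.98 on day 50, -0.59 on day 40 and -0.57 on day 60 for miR-130a. For miR-210 it was 1.81 on day 50, -0.33 on day 40 and -0.93 on day 60, and for miR-339 1.65 on day 50, -0.13 on day 40 and -0.99 on day 60. The values for miR-744 were 1.47 on day 50, -0.50 on day 40 and -0.54 on day 60, and those for miR-455 1.19 on day 50, -0.13 on day 40 and -0.41 on day 60. Among those lower in the day-50 incisor, miR-19b had -1.20 on day 50, 0.55 on day 40 and 1.07 on day 60, and miR-205 had -1.54 on day 50, 0.48 on day 40 and 0.93 on day 60. No group held enough samples to look for one far from the others.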

How the results depend on the processing

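The counts depended most on the scale. From 35 higher and 21 lower, they became 13 and 75 with median centring over all experimental spots, 11 and 103 without normalisation, and 59 and 45 with the authors' values. With the 5S control probes as reference, a choice made after seeing the data, they became 90 and 3. A 3-fold rule gave 15 and 3, fewer by construction, and a 1.5-fold rule gave 40 lower probes, more by construction. For mature pig microRNAs, from 12 and 8, the counts became 5 and 25 with median centring, 4 and 36 without normalisation, 22 and 0 with the 5S reference and 6 and 0 with the 3-fold rule. The lower count became 17 with the authors' values and 16 with the 1.5-fold rule. The cause of the shifts between scales was not tested. The detected median was -0.32 without normalisation and 0.85 with the 5S reference. Leaving out 1 spot gave 35 to 37 higher and 21 to 23 lower, and 12 to 13 and 8 to 9 among mature probes. Of the 56 called probes under 13 settings (728 values), 2 values turned sign: PC-5p-46964 to -0.0067 without normalisation, and miR-218-5p-18206 to 1.81 after the other arrays' mean right over left ratio was removed. That last setting kept 26 of the 35 higher and 14 of the 21 lower calls, with 8 higher calls among mature probes. Another 382 values moved by more than the spot SD. All 35 higher and 20 of the 21 lower probes were also past the rule on the authors' values, where the rule reads 1 value per probe. No paired analysis was possible because each condition has 1 RNA. Dim incisor signal limits the 251 probes detected in the canine alone.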

Other observations

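The arms of the miR-214 hairpin, a mesenchymal microRNA, differed in direction after loess: miR-214-5p-15474 had a log2 ratio of 1.40 ± 0.06 (SD, n = 4 spots), while miR-214 had -0.73 ± 0.04 and miR-214-3p-314 -0.89 ± 0.10. The 5p probe had right over left ratios of -1.21 to 2.06 on the other arrays. The clustered smooth muscle microRNAs miR-143 and miR-145 both read above 0, at 0.61 ± 0.05 and 0.85 ± 0.06. Other scales moved the median of all detected probes to between -0.32 and 0.85, which is as large as several of these ratios.

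Several called probes carry names that have been withdrawn from the microRNA registry as fragments of transfer RNA. PN-1274a-5p-54245 had 1.64 ± 0.10, PN-1274b-5p-339 1.15 ± 0.08 and PN-720-5p-9742 1.40 ± 0.07, all higher in the incisor. A brighter probe, PN-1274b-5p-24235, had 0.72 ± 0.08 and was not past the rule. The mature pig probe to miR-1308 read -0.52 and was not past the rule either. In contrast the lowest probe of the array was miR-1308-3p-49420 at -3.31. Its 4 incisor spots read 7.82, 7.68, 8.01 and 8.02 and its canine spots 11.15, 10.99, 11.21 and 11.40. On the common scale it read 9.23, 8.21 and 8.70 in the incisor and 7.995, 11.51 and 8.13 in the canine on days 40, 50 and 60, so the day-50 canine stood above the other 5.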
